A study of Brachypodium distachyon with 7 samples.

Results

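The 100 genes described here were those of Brachypodium distachyon whose H3K4me3 signal stood highest, relative to seedlings without cold, both at the end of a long cold period and after a return to warmth. They were chosen by the H3K4me3 values themselves, from 9323 genes that held a value of their own in all 4 H3K4me3 libraries, out of 11752 genes with that mark. H3K4me3, trimethylation of lysine 4 of histone H3, gathers around the start of genes that are being transcribed or are ready to be. H3K27me3, trimethylation of lysine 27, is laid down by Polycomb proteins at genes that are kept silent. In vernalization a long cold spell hastens later flowering, and in temperate grasses and other plants both marks are known to shift at the genes that carry the memory of cold. The question put to these genes was whether a higher H3K4me3 level in the cold outlasts it.

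Chromatin immunoprecipitation followed by sequencing was performed on pooled shoots of the diploid line ABR1, grown at 24 °C with 16 h of light and 8 h of dark. V0 seedlings were 17 days old and had no cold. V30 seedlings had 14 warm days and then 30 days at 4 °C. V30N seedlings had 7 warm days, 30 days at 4 °C and 7 more warm days. H3K4me3 was profiled in 2 V0 libraries, 1 V30 library and 1 V30N library, and H3K27me3 in 1 library of each condition. The series' design text calls the second V0 library of H3K4me3 a biological replicate. V0 seedlings were also younger at harvest than both cold-treated groups, so in comparisons with V0 effects of age and of cold cannot be told apart. V30 and V30N seedlings had the same total of warm days and of cold days. The material was whole shoots, so fewer cells carrying a mark and less of the mark per cell cannot be told apart either.

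The measured value was 1 signal per gene and library, as deposited. The sources used here give neither its normalization nor whether it is scaled to gene length, and the depth behind it is unknown. Levels were compared as log2(signal + 9.41), with the median of each library set to 0, and every difference below is on that scale unless called a deposited signal. The constant understates the difference of low genes. Each H3K4me3 library also held 1 fill value, shared by 1139 genes in V0 library 1 (22.3), 74 in V0 library 2 (23.2), 1012 in V30 (22.9) and 208 in V30N (25.4). The 2429 genes at such a value in any library were left out.

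V30 was compared with V0 library 1 and V30N with V0 library 2, the pairs that resembled each other in how often the fill value occurred. These comparisons share no library. Each gene was scored by the smaller of both differences, and the 100 genes with the highest score were taken. Over the 9323 genes, Pearson's r between the libraries of a pair was 0.960 for V0 library 2 and V30N. It was 0.910 for V0 library 1 and V30, and V0 library 1 had the same r of 0.910 with V30N. The V0 libraries correlated with each other at 0.902.

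None of the identifiers in the files matched the reference gene table used here (0 of 16434), so the files do not say what most of these genes encode. A few are given by identifier and the others by their rank in score, from 1 for the highest. The digit after "Bradi" in an identifier is the chromosome.

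The score of the members ran from 0.25 to 0.58, with a median of 0.29. The median difference over the members was 0.35 for V30 against V0 library 1 and 0.31 for V30N against V0 library 2. These values chose the members and are a description, with no test. The V0 libraries, which had the same treatment, differed from each other with an SD of 0.28 over the 9323 genes, and 67 of the 100 scores lay above that SD. The members are the highest scores by choice, so no other gene of the 9323 lay above it, and nothing is read from this count. No member was 2-fold higher in either pair. At 1.5-fold, 10 members were higher in V30 than in V0 library 1, against 1.68% of all 9323 genes, and 3 were higher in V30N than in V0 library 2, against 0.118%. The rule used these same differences, so nothing is read from the shares.

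The cut at 100 genes fell where scores lay close together. The member of rank 99 scored 0.2536 and that of rank 100 scored 0.2535, whereas the genes of rank 101 and 102 scored 0.2529 and 0.2523. The gene of rank 100 had deposited signals of 51.9 in V0 library 1, 64.7 in V30, 49.0 in V0 library 2 and 59.5 in V30N. The gene of rank 101, just outside, had 26.6, 38.4, 33.7 and 40.6 in the same order.

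**Figure D1:**
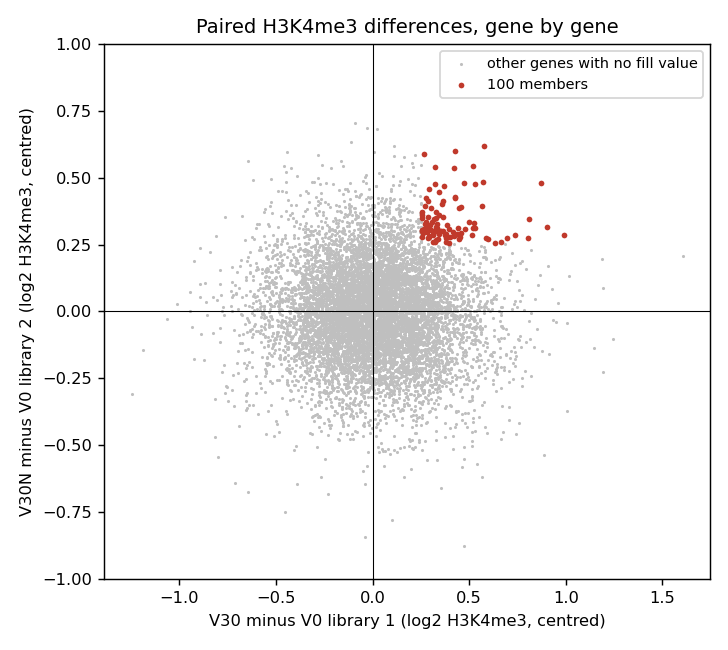
Log2 H3K4me3 difference of V30 from V0 library 1 (x axis) and of V30N from V0 library 2 (y axis), each library centred on its median, for 9323 genes; 1 point is 1 gene and the 100 members are in red. The cloud is wider along x (SD 0.27) than along y (SD 0.18) and has almost no tilt (Pearson's r of -0.03), and the members are the corner of it where both differences are above 0.25.

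Across the 9323 genes, the paired differences did not move together. Pearson's r between them was -0.03 and Spearman's rho -0.03. With the pairing crossed (V30 against V0 library 2 and V30N against V0 library 1, which share no library either), r was -0.40 and rho -0.37. In the crossed pairing, whatever the libraries of a pair share enters the differences with opposite signs, so nothing is read from its r and rho. Each r and rho is a description across genes, which are not independent replicates and which share the 4 libraries. Of the 157 genes that were 1.5-fold higher in V30 than in V0 library 1, 70 (44.6%) were also higher in V30N than in V0 library 2. Among all 9323 genes that share was 49.8%. No gene of the 9323 was 1.5-fold higher in both pairs, and 2 were 1.5-fold lower in both. Both differences were above 0 at 25.4% of genes and below 0 at 24.4%. The 100 genes at the opposite end, chosen by the mirror image of the rule, had similar sizes, with medians of -0.40 for V30 and -0.33 for V30N. Across genes, in the paired differences, a higher H3K4me3 in V30 did not go with a higher one in V30N. These data do not set the members apart as a group raised in cold and after. Values over all genes cannot say whether a small part of the genes is raised in both, and that was not tested.

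The gene with the highest score was Bradi3g28920. Its deposited H3K4me3 signal was 8.40 in V0 library 1 and 14.7 in V0 library 2, 17.6 in V30 and 26.7 in V30N. Both libraries from cold-treated plants lay above both V0 libraries. Bradi1g13980, of rank 2, had 8.50 and 10.2 without cold, 16.6 at V30 and 18.5 at V30N. Here the V0 libraries lay close together and the groups were well apart. The differences were 0.52 in the V30 pair and 0.54 in the V30N pair. Both genes were low, at percentiles 7.29 and 3.90 of mean level over the 4 libraries.

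The 2 members with the highest mean levels gave another picture. Bradi1g24547 (rank 14), at percentile 99.3, had deposited signals of 120 and 92.1 in V0 libraries 1 and 2, 160 at V30 and 127 at V30N. Bradi1g33700 (rank 16), at percentile 99.0, had 108 and 92.3 without cold, 144 at V30 and 122 at V30N. In both genes V30 stood alone at the top, and V30N was only slightly above V0 library 1. With the library medians set to 0, V30N was below V0 library 1 in both, by differences of -0.12 and -0.04. Most other members of high level differed from these 2 genes. With all scored genes cut into 4 equal groups by mean level, the highest group held 15 members. In 13 of the 15, both cold-treated libraries were above both V0 libraries on the same scale. At the low end, Bradi3g10796 (rank 50) had 8.19 and 10.03 in V0, 12.4 in V30 and 14.0 in V30N, with no overlap between the groups. Bradi4g40110 (rank 70) had 10.3 and 7.25 in V0, 18.0 in V30 and 10.3 in V30N, so that V30N and V0 library 1 coincided.

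**Figure D2:**
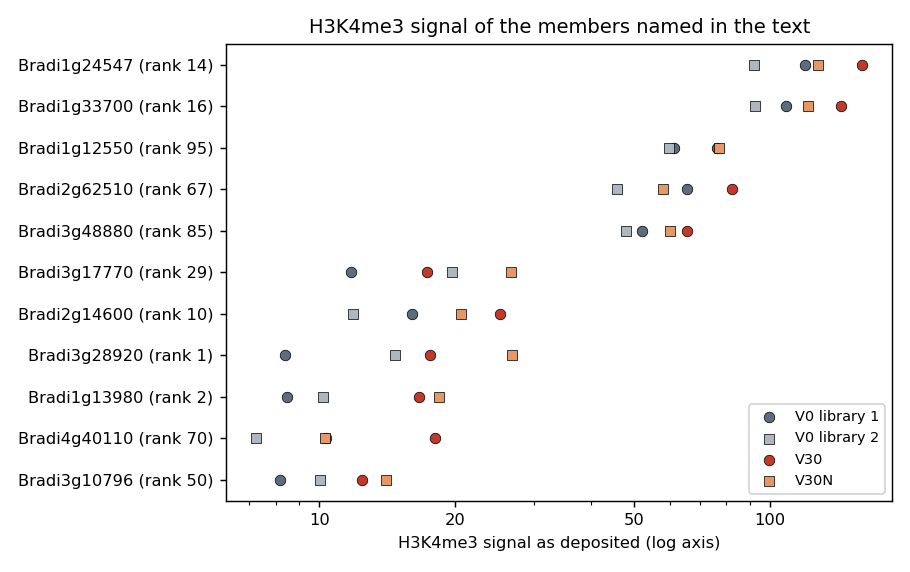
Deposited H3K4me3 signal (log axis) of the 11 members given by identifier, 1 row each, ordered from the lowest mean level at the bottom; grey symbols are the V0 libraries, red V30 and orange V30N, and circles and squares mark the pairs. In every row each cold-treated library lies to the right of its own V0 partner, which the rule required, and in 2 rows (ranks 67 and 70) V30N lies left of V0 library 1.

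One member was on a list of 24 loci with published names for flowering, cold response, clock and reference genes. Bradi3g48880 (rank 85) is published as the Brachypodium counterpart of TOC1, a repressor in the evening part of the circadian clock that is known best from Arabidopsis. The name comes from the literature and not from the files. Its deposited signal was 51.9 and 48.0 in V0 libraries 1 and 2, 65.3 at V30 and 59.8 at V30N. As deposited, both cold-treated libraries were above both V0 libraries. With medians set to 0, V30N was 0.31 above V0 library 2 and 0.02 below V0 library 1 (a difference of -0.02), so the separation from library 1 turned with the scaling. It had no value in the H3K27me3 tables. Of the 24 listed loci, 11 could be scored, 5 were at a fill value and 8 were not in the H3K4me3 tables. VRN1, a promoter of flowering that cold induces in temperate grasses, was at a fill value by its published locus and could not become a member. Of the 11 loci scored, Bradi3g48880 was the only one in which both differences were above 0. Among all genes scored, both were above 0 at 25.4%. The rule used these same differences, so nothing is read from this locus being the only one.

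The rule did not set each cold-treated library against the V0 library of the other pair, although all 4 libraries entered the choice. With medians set to 0, both V30 and V30N were above both V0 libraries in 73 of the 100 members (79 as deposited), and this held for 12.7% of all 9323 genes. Because the rule already fixed 2 of the 4 comparisons, the share is a description. In 25 members V30N was not above V0 library 1, and in 2 members V30 was not above V0 library 2. The median gap between the lower cold-treated library and the higher V0 library was 0.13, with a range of -0.52 to 0.44.

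The crossed differences were uneven. V30 was above V0 library 2 by a median of 0.52, and V30N above V0 library 1 by 0.20. At 1.5-fold, 43 members were higher in V30 than in V0 library 2, against 3.78% of all genes, and 5 were higher in V30N than in V0 library 1, against 0.88%. At each gene, both crossed differences add up to the same total as both differences the rule used. The choice of members therefore raised them too, and nothing is read from these shares. The V0 libraries themselves were uneven at the members: library 2 was below library 1 in 66 of 100, with a median difference of -0.13. Over all genes it was below in 5146 of 9323, with a median of -0.03. V30N was below V30 in 75 members, with a median of -0.18. Over all genes V30N was below in 5005 of 9323, with a median of -0.03. Within pairs, the V30 difference was the larger one in 58 members and the V30N difference in 42.

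**Figure D3:**
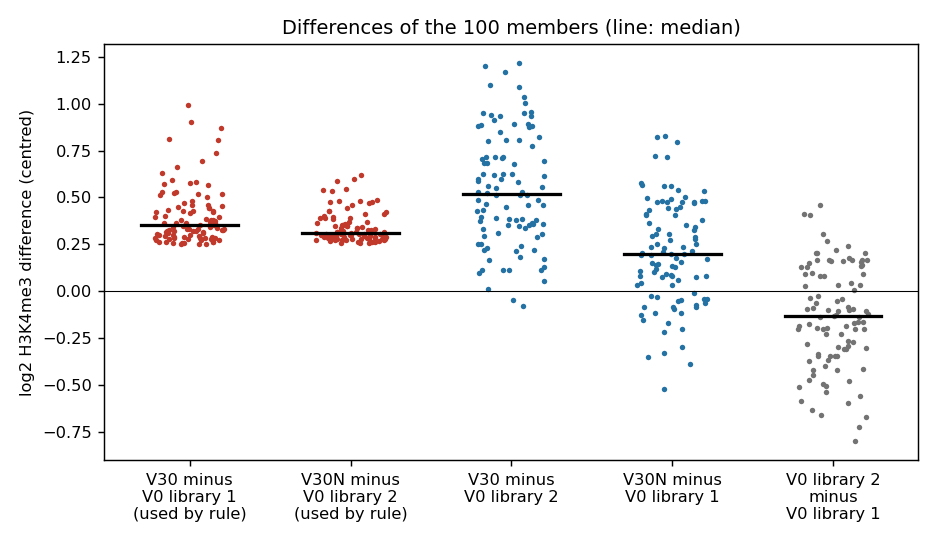
Log2 H3K4me3 differences of the 100 members with each library centred on its median; 1 point is 1 member and the black line is the median. Both differences used by the rule (red) start at 0.25 by construction, whereas the crossed differences (blue) have medians of 0.52 and 0.20 and reach below 0, and the difference between the V0 libraries (grey) spans -0.80 to 0.46.

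Single members show both extremes. The largest V30 difference was at rank 60, where the deposited signal was 37.7 and 39.7 in V0 libraries 1 and 2, 85.4 at V30 and 48.8 at V30N. V30 was far above the other libraries there, and V30N was 0.28 above its own V0 library. Rank 31 was alike, with 13.2 and 13.8 in V0, 33.5 in V30 and 18.7 in V30N. In contrast, rank 5 had 50.7 and 74.2 in V0, 78.6 in V30 and 104 in V30N, so that V30N stood highest. At rank 15 the groups overlapped, with 11.5 and 23.5 in V0, 17.9 in V30 and 33.2 in V30N. Rank 3 combined a high level with separated groups, at 73.8 and 69.9 in V0, 116 in V30 and 98.6 in V30N.

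Members lay toward the low end of H3K4me3 level. When the 9323 genes were ranked by mean level and cut into 4 equal groups, 45 members fell in the lowest, 25 in the second, 15 in the third and 15 in the highest. Their median percentile of level was 28.5. Differences also scattered most among low genes. The SD of the difference between the V0 libraries was 0.33 in the lowest group and 0.26 in each of the others. For the V30N pair the SD was 0.21 in the lowest group and 0.15 in the highest. For the V30 pair it changed less with level, at 0.29 in the lowest group, 0.28 in the second and 0.25 in the third and highest. The part that this scatter has in the choice of members was not tested. In the lowest group the members' median deposited signal was 13.1 in V0 library 1, 13.8 in V0 library 2, 20.3 in V30 and 20.3 in V30N. In the highest group it was 63.6, 75.2, 83.4 and 95.9. Both cold-treated libraries were above both V0 libraries in 30 of the 45 members of the lowest group and 20 of 25 in the second. It was so in 10 of 15 in the third and 13 of 15 in the highest. Over all 9323 genes the share was 12.7%, and it was not computed for all genes of each group. The rule had already fixed part of these comparisons, so nothing is read from the counts.

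The members were spread over all 5 chromosomes. Chromosome 1 held 27, chromosome 2 held 15, chromosome 3 held 27, chromosome 4 held 18 and chromosome 5 held 13. Of all 9323 genes, these chromosomes hold 30.0%, 22.5%, 23.4%, 14.9% and 9.22%. In identifier order among the 9323 genes, 3 pairs of members were direct neighbours. On chromosome 5 these were ranks 4 and 26, with V30 differences of 0.87 and 0.38. On chromosome 4 they were ranks 11 and 64, with V30 differences of 0.56 and 0.28, and on chromosome 3 ranks 71 and 72, with 0.40 and 0.28. The other members had no member beside them. Among the 100 genes at the opposite end there were 0 such pairs. How many pairs a list of this size would hold by position alone was not computed, so nothing is read from these counts.

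H3K27me3 was the measure the rule did not use. It was present in the tables for 13 of the 100 members, against 15.5% of the 9323 genes, a share close to the background. With 1 library per condition there is no replicate check and no test. Levels were compared as log2(signal + 27.3), with libraries as deposited. Both comparisons below share the same V0 library. The members' median deposited H3K27me3 signal was 46.0 without cold, 54.0 at V30 and 58.0 at V30N. For the 1448 scored genes with both marks it was 76.3, 67.6 and 73.4. These are medians of levels, and the members' rise in them is not seen gene by gene. V30 was higher than V0 in 6 of the 13 members and lower in 7, and V30N was higher in 7 and lower in 6.

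At the end of cold, the members' H3K27me3 differed from V0 by a median of -0.05, against -0.08 for the 1448 genes. The members' value was -0.20 for the list from crossed pairing and 0.0054 for the top 200 genes, so its sign and size are unsettled. It was higher in V30 in 6 of 13 members, against 36.0% of the 1448, and lower in 7. At 1.5-fold, 1 member was higher, against 0.414% of the 1448 genes, and 1 was lower, against 3.18%. Bradi2g62510 (rank 67) was lowest, with 403 in V0, 187 in V30 and 290 in V30N. Its H3K4me3 was 65.3 and 45.7 in V0 libraries 1 and 2, 82.5 at V30 and 57.8 at V30N, so H3K4me3 was highest and H3K27me3 lowest in the cold. Bradi2g14600 (rank 10) was next lowest, with an H3K27me3 signal of 77.2, 66.3 and 58.0. Upward, Bradi3g17770 (rank 29) had 34.5 in V0, 74.4 in V30 and 55.6 in V30N, and Bradi3g10796 (rank 50), named above for its low H3K4me3, had 264, 375 and 269. At both genes H3K4me3 in V30, with medians set to 0, was above both V0 libraries as well. At Bradi3g17770 this turned with the scaling. Its deposited H3K4me3 signal was 11.8 and 19.7 in V0 libraries 1 and 2 and 17.4 in V30. With medians set to 0, V30 was 0.10 above V0 library 2.

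After the return to warmth, the median H3K27me3 difference was 0.03, against -0.03 for the 1448 genes, and it was -0.15 for the list from crossed pairing. It was above V0 in 7 of 13 members, against 42.7% of the 1448. No member passed 1.5-fold in either direction, against 0.138% higher and 0.483% lower among the 1448. The lowest members were again Bradi2g62510, at -0.44, and Bradi2g14600, at -0.29. The highest were Bradi3g17770, at 0.43, and Bradi1g12550 (rank 95), at 0.31, whose H3K27me3 signals were 44.0, 52.2 and 61.0 for V0, V30 and V30N. The member with most H3K27me3, of rank 83, had 660, 765 and 733 in the same order. The other members lay between these, with V30N differences of -0.07 to 0.22.

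**Figure D4:**
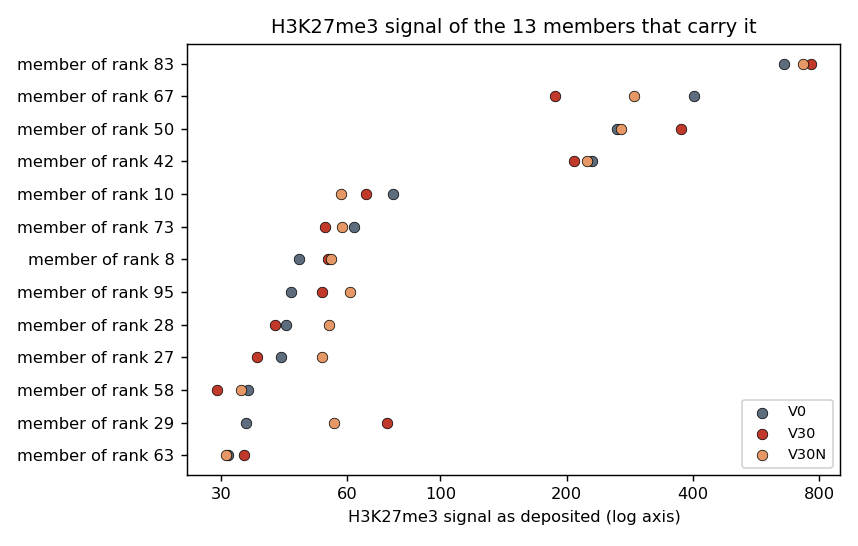
Deposited H3K27me3 signal (log axis) of the 13 members that have it, 1 row each, ordered by V0 level; grey is V0, red V30 and orange V30N, with 1 library each and no error bar. Most rows hold all 3 values close together, and the widest spreads are at rank 67 (403, 187 and 290) and rank 29 (34.5, 74.4 and 55.6).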

How the data were processed

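Signal values per gene were deposited by the authors for 7 libraries, without replicates pooled. Bowtie2 2.1.0 is named in the submitters' processing notes. Genome build, annotation, region calling, input correction and normalization are not given in the sources used here, nor is depth, so no counting interval was computed. From the deposited signal, fill values were found as the most frequent value of each H3K4me3 library, and genes holding one were left out. The constants added before taking log2, 9.41 for H3K4me3 and 27.3 for H3K27me3, are the 1st percentile of each mark's values. H3K4me3 libraries were centred on their medians over the 9323 genes kept. The ranking step was tried on simulated data with independent noise, no resemblance within pairs and planted shifts larger than the members' median differences. It does not say how well the rule finds differences as small as those medians. No p-value was computed, because the H3K4me3 libraries chose the members and H3K27me3 has 1 library per condition. Identifiers were printed for the 2 members highest in score, the 2 highest and 2 lowest in H3K4me3 level and in each H3K27me3 difference, and for listed loci. Other members appear by rank, picked after their values were seen. Members and lists were chosen with earlier results of these data known. Alternatives covered scaling, the constant, low genes, fill values, pairing, list size, the score and leaving out each V0 library. Calculations used Python 3.11.15, numpy 2.4.6 and pandas 2.3.3.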

Additional observations from a re-analysis of the deposited data

Results flagged for a closer look

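At 3 members and in their median, the H3K27me3 differences of V30 and of V30N from V0 had opposite signs. Both were taken against the same single V0 library, and the difference between them was not tested. The member of rank 27 differed by -0.11 in V30 and 0.21 in V30N. The member of rank 28 differed by -0.052 and 0.22, and that of rank 63 by 0.068 and -0.0076. The median over the 13 members with this mark was -0.052 in V30 and 0.027 in V30N.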

How the results depend on the processing

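Which genes made up the list depended on the settings. Of the 100 members, the rule found 55 again when the lowest 25% of genes were left out, 56 when genes with fill values were kept (44 of the new 100 then held one), 39 when the mean of both differences replaced the smaller one, 26 with the pairing crossed, and 13 to 21 when 1 V0 library was left out (21 without library 1, 13 without library 2). Between 72 and 81 were found again without centring, with quantile normalization, or with the constant at 0 or 25. The lowest 25% of genes held 45 members, which cannot return when those genes are left out, so all the other members were found again there. With fill values kept, every gene that took a member's place held a fill value. For the other settings the cause was not tested. The median V30 difference was 0.65 for the list ranked by the mean. Pearson's r between the differences was -0.40 with the pairing crossed. Members with H3K27me3 numbered 8 after quantile normalization and 19 to 24 with 1 V0 library left out. Over the remaining alternatives for H3K4me3, the median V30 difference lay between 0.26 and 0.52 and the V30N one between 0.20 and 0.41. H3K27me3 has no replicate spread to hold its medians against. The V30 median of -0.05 became -0.016 with libraries centred, -0.086 and -0.025 with the constant at 0 and 100, and -0.016 with the trend with level removed. It was -0.20 with the list from crossed pairing and 0.0054 with the top 200 genes. Without the lowest 25% of genes by H3K27me3 level, a different cut from the one by H3K4me3 level above, it was -0.14. The V30N median of 0.03 became 0.044 with libraries centred, 0.014 with the trend removed, -0.15 with the crossed list and 0.012 with the top 200. Without the lowest 25% by H3K27me3 level it was -0.049. No paired analysis was possible because the groups share fewer than 2 replicate numbers. With the depth unknown, what depth limits cannot be stated.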
